A study of Mus musculus with 6 samples.

Results

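Collagen and laminin genes were taken as the protein-coding genes of the deposited table whose symbols are Col, a number, a and a number, or Lama, Lamb or Lamc and a number. This gave 55 of the 43309 genes in the table. They are 11 fibrillar collagens, 8 basement membrane collagens, 25 other collagens and 11 laminin chains. The data were fragment counts per gene from 6 libraries made with the TruSeq Stranded mRNA kit from mESCs, mouse embryonic stem cells, which are pluripotent and grow as lines. The strain of every line was J1 (129SV), and the cells were grown in medium with serum, on gelatin and without feeder cells. The 3 control lines carry the genotype labelled Zbtb24 wild-type (2lox/+), which has 1 allele flanked by loxP sites, and the 3 other lines are labelled Zbtb24 knockout (1lox/1lox), where both alleles have the form left after recombination. The study's methods describe the lines of each group as separate clones, each line gave 1 library from 2 µg of total RNA with 8 PCR cycles, and p-values measure the spread between these lines only. The study used these libraries as the standard-input reference for a low-input kit, and the question here is which matrix genes differed between the groups.

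Collagens are secreted as trimers of alpha chains that wind into a triple helix. Fibrillar collagens assemble into the fibrils of connective tissue, whereas type IV collagen forms the sheet-like network of basement membranes together with laminins, each of which is built from 1 alpha, 1 beta and 1 gamma chain. In the early embryo, laminin and type IV collagen make up the first basement membranes, and parietal endoderm, a derivative of primitive endoderm, secretes both in large amounts.

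Library totals were 26987179 to 27754105 counted fragments for controls and 25042261 to 28838924 for labelled knockouts. Zbtb24 itself had 510, 512 and 489 fragments in control lines 1 to 3 and 888, 925 and 1039 in the lines labelled knockout. It was therefore higher where it was labelled as lost, with a log2 fold change of 0.99, and the groups are called controls and labelled knockouts below. Whole-gene counts cannot tell which exons were read. Libraries of the same group differed by more than sampling noise and none was a copy of another, but the excess was small. The mean chi-square per gene, a measure of how far 2 libraries differ, was 1.14 to 2.24 within groups. Between groups it was 64.5 to 68.9. The common dispersion gave a coefficient of variation of 2.0%. Separate lines are named by the study, and on that ground alone every library counts as 1 replicate. A spread of this size cannot tell separate lines from repeats of 1 line, which was not tested. The p-values below rest on that reading.

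Most collagen and laminin genes that could be tested were lower in labelled knockouts. Of the 55 genes, 46 had at least 10 fragments in at least 1 library and were tested. Of those, 35 were differentially expressed genes (DEGs) by edgeR's quasi-likelihood test (false discovery rate, FDR, up to 0.05), against a background of 69.5% of all 16823 genes tested. By direction, 26 of the 46 were lower, where 35.2% of all genes tested were, and 9 were higher, where 34.4% of all genes were. A fall of at least 2-fold was called in 15 of the 46, where 11.8% of all genes tested had one. The median log2 fold change was -0.53 over the 46, against 0 over all genes tested. Passing the minimum count is not neutral, since 7 of the tested genes reached it in control libraries only and 2 in libraries labelled knockout only. The 19 genes averaging 100 counts or more over the 6 libraries reached the minimum in both groups. Of these, 14 were lower, where 35.5% of the 11115 genes of that abundance were, 8 of them by at least 2-fold, where 5.57% were. Another 4 of the 19 were higher, and Col6a5 did not pass the test. In 40 of the 46, the normalized levels of the 2 groups did not overlap, which was so for 71.5% of all genes tested. In these bulk samples, fewer cells that express a gene and less RNA per cell cannot be told apart.

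The share of a library taken by each class was lower as well. The 55 genes together took 0.182% ± 0.000822 (SD, n = 3) of the fragments in controls and 0.133% ± 0.00148 (SD, n = 3) in labelled knockouts. Fibrillar collagens had the largest relative difference of the 4 classes, from 0.0123% ± 0.000483 to 0.00434% ± 6.76e-05, a ratio of 2.84. Basement membrane collagens went from 0.0641% ± 0.000316 to 0.0355% ± 0.0013, a ratio of 1.81. For the other collagens the ratio of control to labelled knockout was 1.29, and for laminins 1.12, from 0.0982% ± 0.00126 to 0.0881% ± 0.00143. In each class every control library was above every library labelled knockout (two-sided exact permutation test, p = 0.1 each, the smallest that 3 lines against 3 allow).

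**Figure D1:**
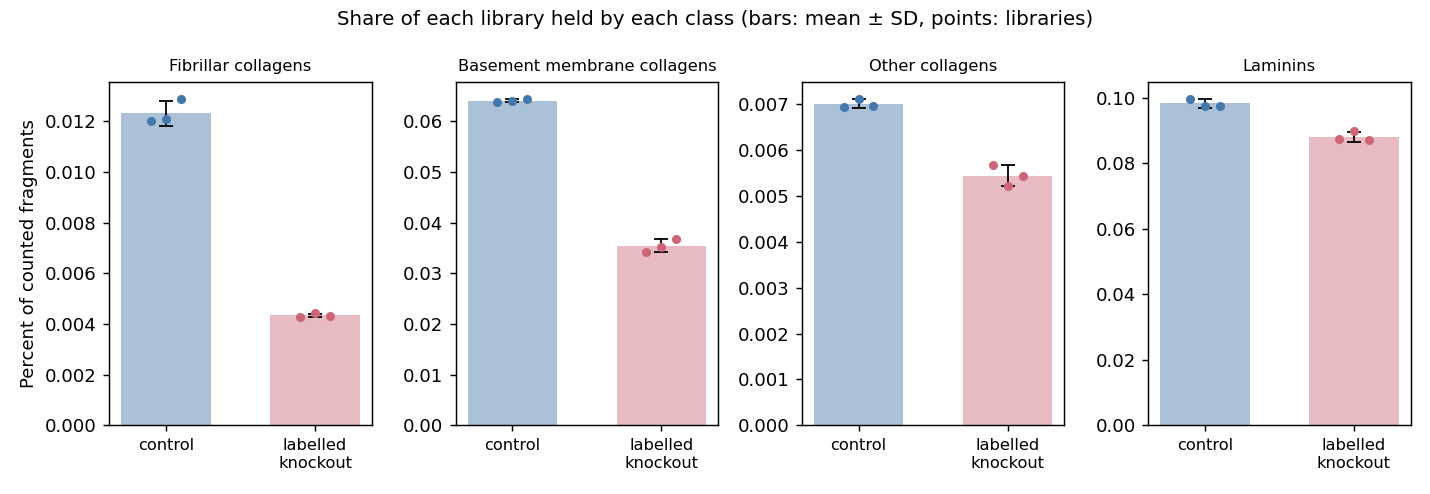
Percent of all counted fragments held by each class (vertical axis, from 0 and with its own scale in each panel) in the control and labelled knockout libraries. Bars are means, error bars the SD and points the 3 libraries per group. The share of fibrillar collagens differed by 2.84 times between groups and that of laminins by 1.12 times.

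Among fibrillar collagens, the chains of type I collagen, the main collagen of skin, bone and tendon, had the largest falls. Col1a1 (ENSMUSG00000001506, mm10 chr11:94936224-94953042, plus strand) had 1095, 1126 and 1188 fragments in controls and 92, 110 and 107 in labelled knockouts. Its partner Col1a2 (chr6:4504814-4541544, plus strand) had 212, 196 and 201 against 22, 17 and 26. For both chains each control library was far above each library labelled knockout. The log2 fold change of Col1a1 was -3.39 (standard error, SE, 0.0707, edgeR quasi-likelihood test, Benjamini-Hochberg adjusted p = 7.29e-39), which left 9.55% of the control level. That of Col1a2 was -3.15 (SE 0.143), which left 11.3%. The 2 chains lie on different chromosomes, and their neighbours within 10 Mb had median log2 fold changes of 0.06 and -0.06. Per kilobase of the longest transcript, Col1a1 was 5.04 times as abundant as Col1a2 in controls and 4.26 times in labelled knockouts. Each type I trimer takes more of the alpha 1 chain than of the alpha 2 chain. This ratio differed by less than the spread between lines (difference -0.24 on the log2 scale, two-sided exact permutation test, p = 0.4).

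Type II collagen, the fibrillar collagen of cartilage, is encoded by Col2a1, which had 364, 338 and 351 fragments against 74, 90 and 87. Its log2 fold change was -1.99, and the groups were wide apart. The type V chains regulate the diameter of fibrils. Col5a1, the most abundant fibrillar chain in labelled knockouts, had 954, 913 and 958 fragments against 590, 528 and 578, and Col5a3 had 256, 241 and 282 against 113, 117 and 158. Both were lower in every library labelled knockout, Col5a1 by a log2 fold change of -0.66 and Col5a3 by -0.93. Col5a2 fell further, from 211, 203 and 249 fragments to 63, 50 and 82, a log2 fold change of -1.69. It lies on chromosome 1. Within 10 Mb of it, the median log2 fold change of 111 genes was 0.59, and 2 of them had a log2 fold change as low as that of Col5a2. Col27a1, a later-described fibrillar chain of cartilage, had 110, 127 and 134 fragments against 58, 59 and 69, a log2 fold change of -0.92.

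In all, 8 of the 10 fibrillar genes tested were lower and 1 was higher, against 35.2% and 34.4% of all genes tested. The median log2 fold change of the 10 was -1.31. All 6 that averaged 100 counts or more were lower, where 35.5% of all genes of that abundance were. Of these 6, 4 were lower by at least 2-fold, where 5.57% were. The exception in direction was Col11a1, a chain of the type XI collagen of cartilage fibrils, with 92, 83 and 82 fragments against 96, 111 and 107. After normalization the groups did not overlap, and its log2 fold change was 0.36 (SE 0.123, edgeR quasi-likelihood test, Benjamini-Hochberg adjusted p = 0.00811). This call was lost with DESeq2 and without knockout replicate 2, and the log2 fold change ranged from 0.272 to 0.416 with single libraries left out. Of the remaining 3 chains, which have few fragments and are named after their values were seen, Col3a1 was lower (13, 21 and 12 against 2, 2 and 5), Col11a2 did not pass the test and Col24a1 was not tested. Col3a1, 1 of the 8 lower, reached the minimum count in controls only, so a test could hardly find it otherwise than lower. Per length, the 11 fibrillar chains spanned 0.0203 FPKM (Col24a1) to 6.92 FPKM (Col1a1) in controls. After the fall in Col1a1 to 0.662 FPKM, Col5a1 stood highest at 2.56 ± 0.126 FPKM (SD, n = 3).

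**Figure D2:**
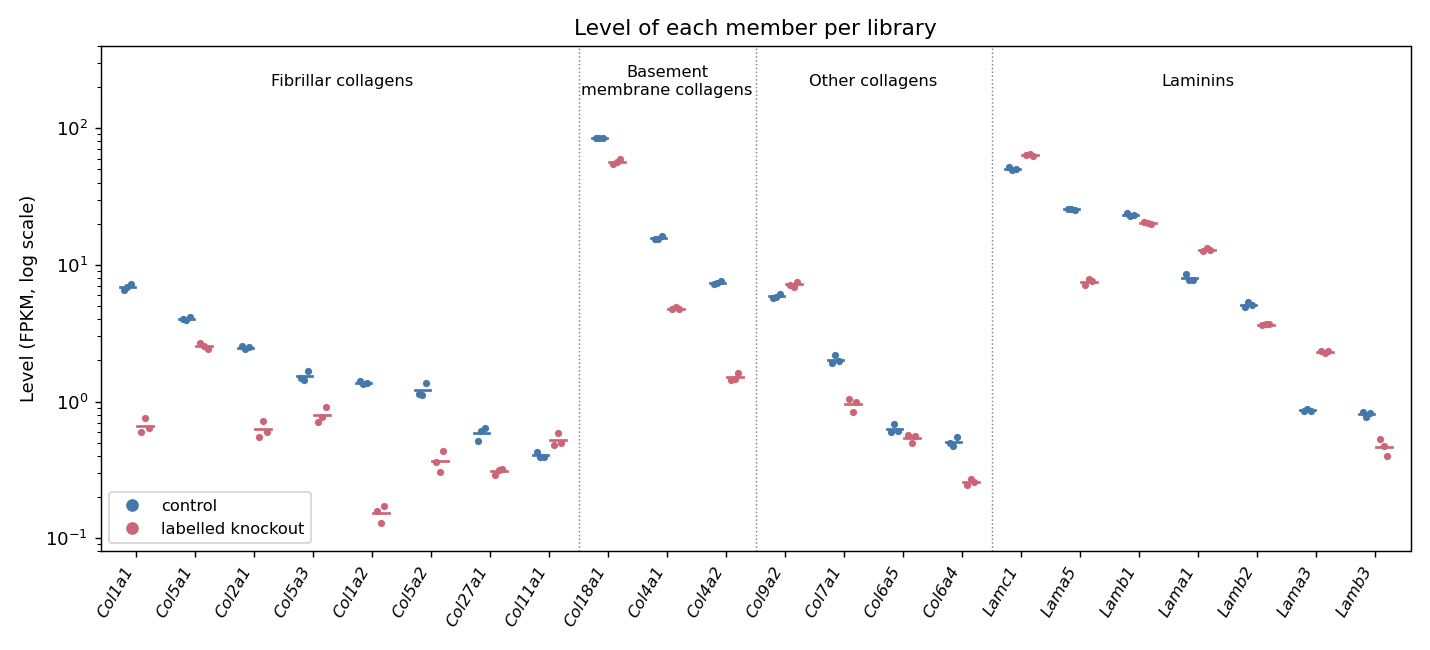
Level of the collagen and laminin genes with at least 100 normalized counts in a group (1 gene is not shown), in fragments per kilobase of the longest transcript and per 1000000 fragments (FPKM, log scale on the vertical axis). Points are libraries (blue for control, red for labelled knockout) and short lines are group means. Col18a1 stood highest of the collagens in both groups at 85.3 and 57.0 FPKM, Col1a1 and Col1a2 showed the widest gaps, and Lama5 and Lama1 changed order.

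Basement membrane collagens were lower as well, led by the chains of type IV collagen, the network former of every basement membrane. Col4a1 (ENSMUSG00000031502) had 2904, 2829 and 2937 fragments in controls and 817, 801 and 884 in labelled knockouts. Col4a2 (ENSMUSG00000031503), with which it assembles, had 1319, 1312 and 1342 against 241, 232 and 297. Values of the groups were far apart for both chains. The log2 fold change was -1.72 for Col4a1 (SE 0.0358, edgeR quasi-likelihood test, Benjamini-Hochberg adjusted p = 6.57e-39) and -2.29 for Col4a2 (SE 0.0537). This left 30.4% of Col4a1 and 20.4% of Col4a2. Levels went from 15.8 ± 0.341 to 4.79 ± 0.108 FPKM for Col4a1 and from 7.42 ± 0.156 to 1.51 ± 0.108 FPKM for Col4a2 (SD, n = 3 each). The chains thus fell unequally. Per length, Col4a1 was 2.13 times as abundant as Col4a2 in controls and 3.18 times in labelled knockouts. All 3 ratios labelled knockout were above all control ratios (two-sided exact permutation test, p = 0.1, the smallest this design allows).

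Both genes lie head to head on chromosome 8, Col4a1 on the minus strand from 11312826 downwards and Col4a2 on the plus strand from 11312805 upwards. Their annotated starts are 21 bases apart, so that the first bases of each first exon overlap on opposite strands. The stretch from the start of Col4a2 to that of Col4a1 is shown because both promoters share it, at chr8:11312805-11312826 of GRCm38.p6 (RefSeq, the same assembly as mm10), plus strand, with a GC box (GGGCGG) in capitals.
Col4a2 start to Col4a1 start: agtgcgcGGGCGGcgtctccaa
In windows from 250 bases before to 50 bases after each start, the pair share 78 bases, and the ratio of observed to expected CpG was 0.9 for Col4a1 and 0.82 for Col4a2, against a median of 0.38 over all 32851 windows of the RefSeq table. Fragments were counted by strand. Within 10 Mb of this pair, the median log2 fold change of 81 genes was -0.6, and 84.0% of them were called lower. Relative to that median, Col4a1 was at -1.12 and Col4a2 at -1.7 on the log2 scale, and 4 and 3 of the 81 neighbours, respectively, had a log2 fold change as low. The part of the region in the result was not tested.

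The alternative type IV chains were scarce. Col4a5, a chain of the kidney and lung networks on the X chromosome, had 25, 32 and 34 fragments against 8, 12 and 10. Its groups did not overlap, and its log2 fold change of -1.52 passed the test. Relative to Col4a1 it did not differ between groups beyond the spread of the lines, with ratios per length of 0.0107 and 0.0126 (two-sided exact permutation test, p = 0.4). The 3 others were below the minimum for the test. Col4a3 had 0, 0 and 2 fragments against 1, 0 and 0, Col4a4 had 6, 2 and 0 against 5, 3 and 4, and Col4a6 had 4, 8 and 7 against 2, 1 and 6. These 3 chains overlapped between groups, and any difference was not detectable at this depth. Together the 6 type IV chains took 3.78 times as large a share of the control libraries as of those labelled knockout.

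Col18a1 and Col15a1 encode the multiplexins, basement membrane collagens that carry heparan or chondroitin sulfate chains and release endostatin-like fragments. Col18a1 (ENSMUSG00000001435, chr10:77052178-77166548, minus strand) held more fragments than any other of the 55 genes in controls. It had 13448, 13120 and 13063 fragments against 7996, 7780 and 9430. Levels were 85.3 ± 0.198 and 57.0 ± 2.52 FPKM (SD, n = 3 each), with no overlap, and the log2 fold change was -0.58 (SE 0.0255). Col15a1, named after its values were seen, had 9, 8 and 11 fragments against 8, 3 and 3, which overlapped between groups and did not pass the test (log2 fold change -0.91, SE 0.499). The ratio of the 2 per length overlapped as well (two-sided exact permutation test, p = 0.5).

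Markers of other cell types were read beside these values. In the lists that follow, counts stand beside the 35.2% of all genes tested that were lower and the 34.4% that were higher. Of 12 markers of primitive and parietal endoderm, all tested, 2 were higher and 4 lower, near or under those shares. The minimum count was reached in controls only by 2 of the 12. The summed level of the 12 was 138 to 147 cpm (counts scaled to a library of 1000000) in controls and 42.4 to 47.0 in labelled knockouts. The endocytic receptor Lrp2 carried most of that sum, with 3626, 3263 and 3447 fragments against 603, 656 and 710 (log2 fold change -2.32), whereas Dab2 had 167, 182 and 192 against 141, 146 and 175 and did not pass the test. None of the 12 was at or under 3 fragments in every library. The 12 markers of fibroblasts, cells that make type I collagen, had a summed level of 676 to 717 cpm in controls and 1130 to 1160 cpm in labelled knockouts. Nearly all of that sum came from Fn1, the matrix protein fibronectin, whose log2 fold change was 0.75. Fn1 lies on chromosome 1, where its 112 neighbours were at a median of 0.58, which leaves 0.17 relative to them. Of this list, 8 were tested, 1 was higher and 5 were lower, among them the surface antigen Thy1 at -0.76. Of the 8, 4 reached the minimum count in controls only, so a test could hardly find these otherwise than lower. Lum, Fap and Mgp were at or under 3 fragments in every library. The 8 endothelial markers summed to 166 to 173 cpm against 148 to 153 cpm. Most of that sum was Pecam1, with a mean of 109 cpm in controls and 119 cpm in labelled knockouts. Of the 8 markers, 7 were tested, 1 was higher, Pecam1 at a log2 fold change of 0.12, and 6 were lower, with Eng at -0.9. Emcn was at or under 3 fragments in every library, and 2 of the 7 reached the minimum count in controls only. The 8 trophoblast markers summed to 86.7 to 90.8 cpm against 82.7 to 84.2 cpm, 2 higher and 5 lower, with Tfap2c at 0.41 and Krt7 at -3.15. Tfap2c made up most of that sum, with a mean of 53.3 cpm in controls and 70.6 cpm in labelled knockouts. The trophoblast and endothelial sums therefore say little about the other markers of each list. All 12 pluripotent cell markers passed the test, 8 higher and 4 lower, with log2 fold changes from -2.07 (the DNA methyltransferase gene Dnmt3b) to 1.16 (Esrrb), both named after their values were seen. The most abundant markers, Pou5f1 and Dppa5a, were both at 0.2, and the list had summed levels of 6430 to 6480 cpm and 7060 to 7140 cpm. The part that other cells might have in the collagen and laminin values was not tested.

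**Figure D3:**
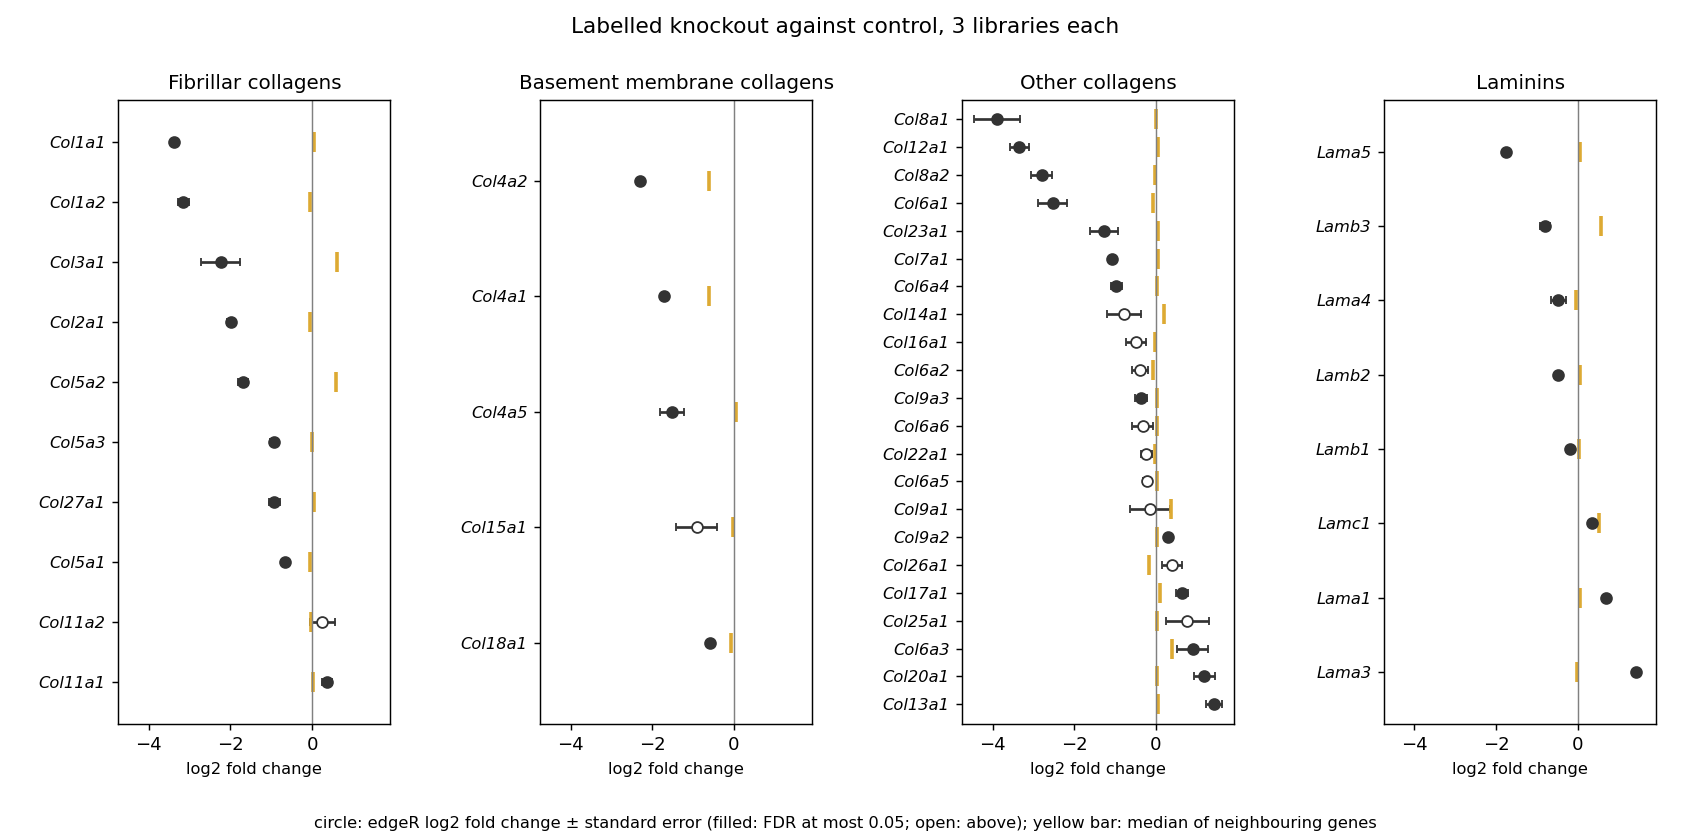
Log2 fold change of labelled knockout against control for the collagen and laminin genes tested (horizontal axis), by class, except 1 gene that is not reported here. Circles are edgeR estimates with their standard errors, filled at an FDR of at most 0.05 and open above it, and yellow bars are the median of neighbouring genes within 10 Mb. Col4a1 and Col4a2 lie below a neighbourhood at -0.6, and Col5a2 lies below one at 0.59.

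Laminin chains differed in both directions, and the alpha chains exchanged rank. All 9 laminins tested were DEGs, where 69.5% of all genes tested were. Of the 9, 6 were lower and 3 higher, against 35.2% and 34.4% of all genes, so the share that was higher was near the background. Their median log2 fold change was -0.19. Lama5 and Lama1 encode the alpha chains of the laminins that pluripotent cells and early basement membranes use. Lama5 (ENSMUSG00000015647, chr2:180176373-180225859, minus strand) had 8184, 8041 and 7887 fragments in controls and 2131, 2191 and 2439 in labelled knockouts. Lama1 (ENSMUSG00000032796, chr17:67697259-67822647, plus strand) had 2285, 2022 and 2018 against 3126, 3128 and 3438. Neither gene overlapped between groups. The log2 fold change was -1.76 for Lama5 (SE 0.0287, edgeR quasi-likelihood test, Benjamini-Hochberg adjusted p = 2.45e-43) and 0.69 for Lama1 (SE 0.0332). Per length, Lama5 went from 25.5 ± 0.239 to 7.52 ± 0.329 FPKM and Lama1 from 7.99 ± 0.464 to 12.9 ± 0.398 FPKM (SD, n = 3 each). The ratio of Lama1 to Lama5 was 0.313 in controls and 1.71 in labelled knockouts, a 5.48-fold difference. Its log2 values were -1.58, -1.73 and -1.71 against 0.81, 0.77 and 0.75, so the groups did not overlap (two-sided exact permutation test, p = 0.1, the smallest this design allows). For the neighbours of either gene the median was 0.05.

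The 250 bases before the annotated start of Lama5 are shown because it was the only laminin called lower by at least 2-fold. They lie at chr2:180225860-180226109 of GRCm38.p6 (RefSeq), minus strand, and hold 4 GC boxes, written in capitals as GGGCGG or its reverse complement CCGCCC.
Lama5: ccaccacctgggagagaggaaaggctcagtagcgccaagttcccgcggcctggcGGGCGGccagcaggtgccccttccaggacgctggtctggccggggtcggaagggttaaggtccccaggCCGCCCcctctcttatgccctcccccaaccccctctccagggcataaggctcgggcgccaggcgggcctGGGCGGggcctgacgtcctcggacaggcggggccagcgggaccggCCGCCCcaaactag

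Lama3, the alpha chain of epithelial anchoring laminins, had the largest rise of the laminins. It had 255, 255 and 248 fragments against 646, 590 and 700, a log2 fold change of 1.43 (SE 0.0604), and went from 0.865 ± 0.0128 to 2.32 ± 0.0439 FPKM (SD, n = 3 each). Lamb3, a beta chain that assembles with it, was lower. It had 114, 104 and 111 fragments against 67, 57 and 55, a log2 fold change of -0.8, and lies on chromosome 1 among neighbours with a median of 0.57. Lama4, a chain of vessel basement membranes, had 49, 46 and 55 fragments against 34, 27 and 41. Its log2 fold change of -0.48 passed the test (edgeR quasi-likelihood test, Benjamini-Hochberg adjusted p = 0.0183), but the call was lost with DESeq2, at an FDR of 0.01, without control replicate 3 and without knockout replicate 2, with log2 fold changes from -0.583 to -0.386 over the omissions. Lama2, the alpha chain of muscle laminin, had 4, 5 and 3 fragments against 7, 4 and 5 and was not tested.

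Summed over the alpha chains, the level was 34.7 ± 0.544 FPKM in controls and 23.0 ± 0.652 FPKM in labelled knockouts (SD, n = 3 each). Lama5 made up 72.5%, 74.3% and 73.9% of it in controls and 32.1%, 33.1% and 33.0% in labelled knockouts. Lama1 made up 24.2%, 22.3% and 22.6% against 56.3%, 56.5% and 55.6%. Lama3 went from 2.5% ± 0.053 to 10.1% ± 0.455. Thus Lama5 led in every control library and Lama1 in every library labelled knockout (two-sided exact permutation test, p = 0.1 for each of these 3 shares, the smallest this design allows). The share of Lama4, 0.863% and 0.926%, overlapped between groups.

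**Figure D4:**
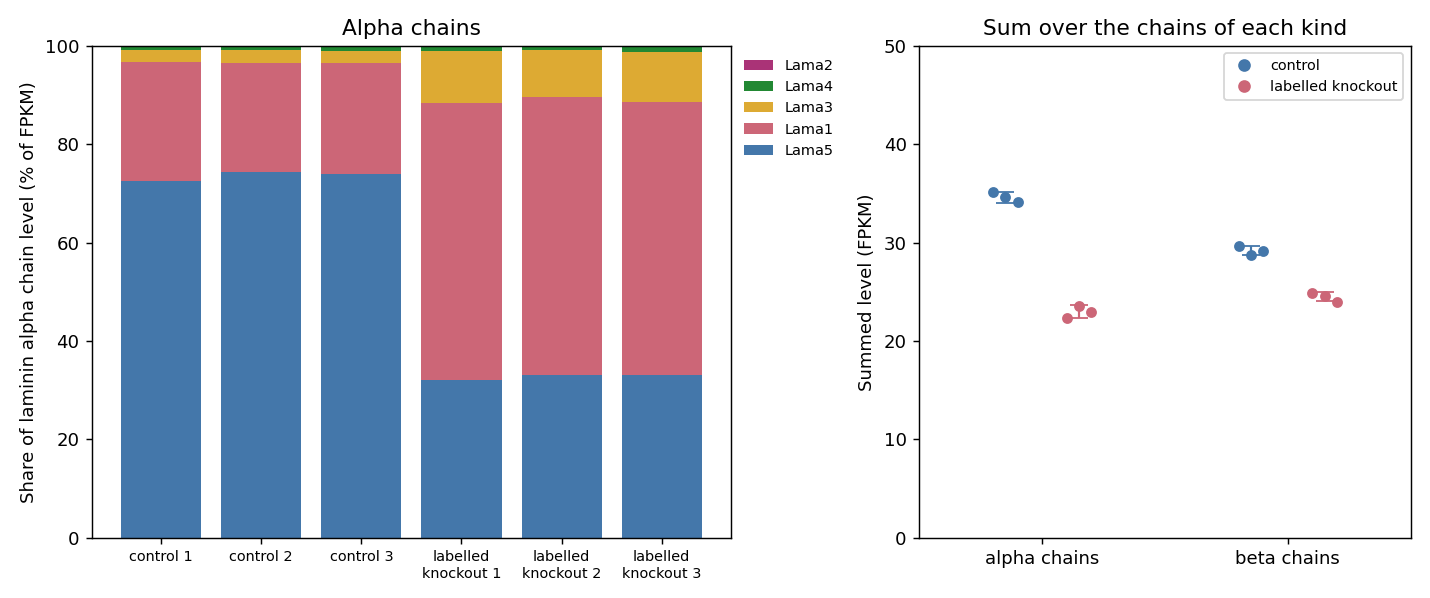
Left, the share of each alpha chain in the summed laminin alpha chain level (percent of FPKM) in each of the 6 libraries, with Lama5 at 72.5% to 74.3% in controls and 32.1% to 33.1% in labelled knockouts. Right, summed level (FPKM) of the alpha and of the beta chains, with points for libraries and bars for the mean ± SD, both lower in labelled knockouts.

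The beta and gamma chains common to most laminins moved little. Lamb1 had 3897, 3592 and 3707 fragments against 3136, 2913 and 3244, a log2 fold change of -0.19 (SE 0.0289). Lamb2, which replaces it at synapses and in the kidney filter, had 774, 828 and 780 against 529, 510 and 587, a log2 fold change of -0.48. After normalization the groups did not overlap for either chain. Per length, Lamb1 was 4.57 times as abundant as Lamb2 in controls and 5.56 times in labelled knockouts (two-sided exact permutation test, p = 0.1). Lamb1 made up 79.8% ± 1.04 of the beta chain level in controls and 83.2% ± 0.256 in labelled knockouts (SD, n = 3 each). Lamc1, the gamma chain of most laminins, had 11081, 10371 and 10500 fragments against 12620, 12199 and 13581, a log2 fold change of 0.34 (SE 0.0238). It lies on chromosome 1, where its 88 neighbours had a median log2 fold change of 0.53, so that relative to them it was at -0.19. Lamc3 had 3, 6 and 5 fragments against 5, 1 and 1 and was not tested. The beta chains summed to 29.2 ± 0.466 FPKM in controls and 24.5 ± 0.476 FPKM in labelled knockouts (SD, n = 3 each). Lamc1 alone took 21.5% of all collagen and laminin fragments in controls and 35.9% in labelled knockouts, where that total was itself smaller.

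The other collagens were mostly scarce and went both ways. Of the 25, 22 were tested, 8 were lower and 5 higher, with a median log2 fold change of -0.34. The share that was lower was near the 35.2% of all genes tested. Of the 22, 5 reached the minimum count in controls only and 2 in libraries labelled knockout only. Only 4 reached 100 normalized counts in a group. Col9a2, a chain of the type IX collagen that decorates cartilage fibrils, was the most abundant of them per length at 5.92 ± 0.221 and 7.21 ± 0.303 FPKM (SD, n = 3 each). It had 472, 471 and 495 fragments against 549, 498 and 621, and its normalized groups did not overlap, with a log2 fold change of 0.29 (SE 0.0556). Col7a1, the collagen of the anchoring fibrils that tie epithelium to its basement membrane, had 497, 558 and 500 fragments against 251, 190 and 258. Its log2 fold change was -1.08 (SE 0.0718), and it left 47.3% of the control level. Among the type VI chains, which form beaded filaments, Col6a4 had 103, 96 and 111 fragments against 47, 49 and 54, a log2 fold change of -0.97. Col6a5, 157, 175 and 154 against 139, 113 and 147, had a log2 fold change of -0.21 that did not pass the test (edgeR quasi-likelihood test, Benjamini-Hochberg adjusted p = 0.0586).

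The genes in this paragraph have fewer counts and are named after their values were seen. Of them, Col12a1, Col8a1 and Col6a1 reached the minimum count for the test in controls only, where they were high, so a test could hardly find them otherwise than lower. Col12a1, which binds to the surface of type I fibrils, had 98, 73 and 79 fragments against 8, 6 and 9, a log2 fold change of -3.35. The short chain collagen genes Col8a1 and Col8a2, whose products form the lattice of corneal and vascular membranes, had 30, 11 and 26 against 1, 0 and 3 and 83, 50 and 58 against 7, 10 and 9. Col8a1 was thus at or under 3 fragments in every library labelled knockout. Col6a1, a core chain of type VI collagen, had 37, 27 and 23 against 6, 2 and 6, a log2 fold change of -2.53. In these 4 genes, as in Col23a1 (log2 fold change -1.27), the groups did not overlap. Transmembrane collagens held the largest rise of the collagens. Col13a1, found at cell adhesion sites, had 29, 29 and 19 fragments against 80, 63 and 53, a log2 fold change of 1.42, and Col17a1, the hemidesmosome collagen, had 62, 48 and 72 against 81, 92 and 97, a log2 fold change of 0.64. Col20a1 was higher too, with 20, 18 and 12 against 43, 36 and 30, but overlaps another annotated gene on its strand. Col6a3 (log2 fold change 0.9) reached the minimum count in libraries labelled knockout only, where it was high. It lies on chromosome 1, where its 116 neighbours had a median log2 fold change of 0.4, which leaves 0.5 relative to them. The call of Col6a3 was lost with DESeq2, with library totals only, at an FDR of 0.01, without control replicate 1 and without knockout replicates 1 or 3. That of Col9a3 (-0.36) was lost with DESeq2, at an FDR of 0.01, without control replicates 2 or 3 and without knockout replicate 3. With single libraries left out, their log2 fold changes ranged from 0.654 to 1.031 and from -0.455 to -0.185. Besides Col6a5, the genes that did not pass the test were Col6a2, Col6a6, Col9a1, Col14a1, Col16a1, Col22a1, Col25a1 and Col26a1, and Col10a1, Col19a1 and Col28a1 were not tested.

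The 250 bases before the start of Col13a1 are shown because it had the largest rise among the collagens. They lie at chr10:61979109-61979358 of GRCm38.p6 (RefSeq), minus strand. The capitals mark the letters of a TATA box (TATAAA), which stand near the end of the stretch that is farthest from the start.
Col13a1: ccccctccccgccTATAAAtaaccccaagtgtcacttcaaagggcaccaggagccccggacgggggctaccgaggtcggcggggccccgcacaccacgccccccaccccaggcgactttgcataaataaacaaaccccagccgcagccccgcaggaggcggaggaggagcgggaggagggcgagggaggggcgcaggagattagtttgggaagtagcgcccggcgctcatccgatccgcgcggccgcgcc
RefSeq windows of 300 bases were found for 40 of the 55 genes, 44 windows in all. A GC box (GGGCGG, either strand) was in 59.1% of them, against 35.7% of all windows in the table, which also covers noncoding genes. The TATA box (TATAAA, either strand) was in 11.4% against 13.6%, CCAAT in 31.8% against 37.4% and the AP-1 site TGACTCA in 2.27% against 5.2%. The letters CAGGACCT, a core of the motif that ZBTB24 is known to bind, were in 0 of the 44 windows and in 1.99% of all windows. A match of letters is a description and no proof of a site.

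The counts were also split by chromosome. Of the 43 collagen and laminin genes outside chromosomes 1 and 8, 37 were tested, 20 were lower and 7 higher, against 35.2% and 34.4% of all genes tested. The median log2 fold change of the 37 was -0.48. Among them, 5 reached the minimum count in controls only and 1 in libraries labelled knockout only. On chromosome 1, 4 of the 7 tested were lower and 2 higher. Of these 7, 2 reached the minimum count in controls only and 1 in libraries labelled knockout only. The 2 genes on chromosome 8 were Col4a1 and Col4a2. Of the 14 outside both chromosomes that averaged 100 counts or more, 10 were lower, where 35.5% of all genes of that abundance were, and 3 were higher.

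Genes whose products make, anchor or remove these proteins were read from 5 lists, again beside 35.2% of all genes tested lower and 34.4% higher. The minimum count was reached in controls only by 1 gene of collagen chain processing, 2 of secretion, cleavage and crosslinking and 1 receptor. In libraries labelled knockout only, it was reached by 1 gene of chain processing and 1 other basement membrane component. Of 20 genes of collagen chain processing in the endoplasmic reticulum, all tested, 13 were lower and 5 higher. Their summed level was 1730 to 1740 cpm in controls and 1250 to 1270 cpm in labelled knockouts. P4hb, named after its values were seen, held the largest part of that sum and of its fall. It had a mean of 902 cpm in controls and 598 cpm in labelled knockouts. Fkbp10, a prolyl isomerase that assists collagen folding, had 2105, 2090 and 2057 fragments against 464, 464 and 579, a log2 fold change of -1.98. P3h4, a partner of the prolyl and lysyl hydroxylases, had 1021, 1020 and 1008 against 255, 247 and 342, a log2 fold change of -1.78. In both, the libraries labelled knockout lay far below the controls. These genes lie head to head on chromosome 11, P3h4 on the minus strand from 100414836 downwards and Fkbp10 on the plus strand from 100415697 upwards. Creb3l1, a transcription factor for collagen genes, had a log2 fold change of -1.13, whereas P4ha1, the catalytic chain of prolyl 4-hydroxylase, had 466, 424 and 476 fragments against 784, 693 and 730 and was higher by 0.77 on the log2 scale.

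Of 14 genes of secretion, cleavage and crosslinking, 13 were tested, 7 were lower and 1 was higher. Bmp1, the protease that removes the C-terminal propeptide of fibrillar collagens, had 389, 398 and 413 fragments against 81, 77 and 109, a log2 fold change of -2.09, without overlap. Tgm2, a crosslinking transglutaminase, stood at -1.09, Pcolce2, an enhancer of that cleavage, at -0.66, and Adamts14, an N-propeptide protease, at -0.49. Of 16 receptors for collagen and laminin, 15 were tested, 12 were lower and 1 was higher, and their sum went from 1280 cpm to 863 to 900 cpm. Itgb4, the integrin beta chain that binds laminin in hemidesmosomes, had 327, 380 and 340 fragments against 95, 95 and 106, a log2 fold change of -1.75. The collagen receptors Ddr2 and Ddr1 stood at -1.23 and -0.93 and the syndecan Sdc4 at -1.26. Of 16 other basement membrane components, 14 were tested, 8 were lower and 5 higher, and their sum was 1600 to 1630 cpm against 1610 to 1660 cpm. Tinagl1 had the largest difference of those named, with 237, 248 and 252 fragments against 36, 26 and 43, a log2 fold change of -2.73. Pxdn, the peroxidase that crosslinks type IV collagen, had 1240, 1107 and 1219 against 452, 386 and 432, a log2 fold change of -1.42. Fbln1 was at 0.59 and Frem2 at -0.54. Of 19 genes of matrix degradation, 14 were tested, 7 were lower and 1 was higher. The gelatinase gene Mmp2 was at -0.86, and Mmp14, Timp2 and Timp3 were at -0.75 each.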

How the data were processed

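Total RNA of 6 mESC lines was made into TruSeq Stranded mRNA libraries. The authors removed reads from rRNA with Bowtie2 2.1.0, mapped the others to mm10 with TopHat2 2.0.10 and counted fragments of GENCODE M4 genes with HTSeq 0.6.1, by strand, leaving out fragments in several genes or places. The deposited values are these raw counts per gene, with no normalization. Chains with near-identical copies would lose fragments by this rule. Symbols, positions and transcript lengths came from GENCODE M21 on the same build, which matched 42425 of 43309 identifiers, and promoter windows from RefSeq.

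Genes that reached 10 counts in any library were tested in R 4.3.3 with edgeR 4.0.16 (TMM, quasi-likelihood test, Benjamini-Hochberg FDR at most 0.05 over 16823 genes, no covariate). A standard error is the log2 fold change divided by the square root of F. The common dispersion was 0.000402, or 2.0% as a coefficient of variation. The script was tested on simulated data. FPKM is TMM-scaled cpm per kilobase of the longest transcript. Chain ratios had 0.5 counts added and were, like the shares, compared by exact permutation tests in Python 3.11.15. The p-values of these 6 ratios and of the shares were not adjusted, and 3 libraries against 3 allow none under 0.1. Neighbours are other tested genes averaging 10 counts or more that start within 10 Mb. The counts cover 25042261 to 28838924 fragments a library, without molecular identifiers.

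Alternatives tried were edgeR's likelihood ratio and exact tests, DESeq2 1.42.0, limma-voom (limma 3.58.1), other scalings, filters, thresholds, depth, gene lengths and denominators, a block for replicate number, and leaving out each library in turn. Leaving out the members on chromosomes 1 and 8 was added after seeing the data. Members with at least 100 normalized counts in a group, all type IV and laminin chains, up to 4 genes of each pathway list and 2 of each marker list were named, with other names marked as chosen by value. The members and lists were chosen with earlier results of these data known. Values of 1 member are not reported here. Libraries made with other kits were not analysed here.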

Additional observations from a re-analysis of the deposited data

How the results depend on the processing

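Counts of called genes by class and over the pathway lists, log2 fold changes of the named genes, class shares and chain ratios were recomputed under up to 20 alternative settings. The laminin chain make-up, type IV share, single lists, neighbour medians and promoter windows were not. A minimum absolute log2 fold change of 1 left 18 of all collagen and laminin genes (from 35), 5 fibrillar collagens (from 9), 8 other collagens (from 13), 2 laminins (from 9) and 21 genes of the pathway lists (from 60) called, and it ended the call of Zbtb24 at a log2 fold change of 0.989. A mean of 50 counts left 6 other collagens called, since fewer genes were then tested. With each library left out in turn, 33 to 35 collagen and laminin genes were called. Col9a1, which was not called, had a log2 fold change of -0.14 that went to 0.001 without knockout replicate 1 and to -0.341 without control replicate 2, and no other collagen or laminin gene changed direction. Beyond the calls named above, Col15a1 passed the test with limma-voom and without knockout replicate 1, and Col14a1 without control replicate 3. Both genes reached the minimum count in controls only, so a test could hardly find them otherwise than lower. Col6a2 passed with library totals, without control replicate 3 and without knockout replicate 3. Col6a5 passed with library totals, with a mean of 50 counts, without control replicate 1 and without knockout replicate 1. The scalings moved the median of all genes to between -0.049 and 0.014. Same-numbered libraries correlated at 0.005, 0.075 and 0.012 in their deviations from group means, and differently numbered ones at -0.076 to 0.061. These deviations were small, so the check cannot tell whether the numbers pair the lines. With the replicate block 35 collagen and laminin genes were called, and no call among them changed. Genes with fewer than 10 fragments were below what this depth can compare.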
